A study of Equus caballus with 26 samples.

Results

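The cell division genes followed here are 40 genes whose products copy the DNA or drive mitosis, listed by symbol. The list was chosen with earlier results of these data known. They were looked up on an Agilent equine array by the gene name of each probe (23 genes) or, where that name did not match, by the gene's description in the scanner files (16 genes). *CCNA2*, the gene of cyclin A2, was matched by neither route and is not analysed here. A gene was kept where its brightest probe was well above background, as called by the scanner software, on 3 or more of 26 arrays. This left 36 of the 40 genes, among 19413 of 24415 gene names on the array that met the same condition. *KIF20A*, *PRC1* and *CDCA8* were below it, on 2, 2 and 1 arrays. All 12 genes of DNA replication and nucleotide supply were kept, and 24 of the 28 genes of mitosis. Of the 36 genes, 23 were well above background on every array.

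Whole blood of horses was taken into RNA-stabilising tubes before (T0, at rest) or just after (T1) a 160 km endurance ride. The training set held 3 geldings, numbered 2, 32 and 41, each measured at both time points. The validation set held 7 other horses at T0 (3 females and 4 geldings) and 13 further horses at T1 (3 females and 10 geldings), so that its time points were compared between animals. The series describes its riders' horses as Arabians or half-bred Arabians with a mean age of 10 years (SEM 2), the breed label of every sample read "Autre", and the labels name no treatment other than the ride. Every array stands for a single horse. No age or race outcome of a single horse is in the labels, so that neither entered a comparison. By the study's methods every validation horse sampled at T1 completed the ride, while most of those sampled at T0, not all of which are analysed here, were later eliminated at a veterinary check, so that outcome and time point cannot be told apart in the validation set.

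Most leukocytes in blood are non-dividing, above all the mature neutrophils, and RNA of cell division genes in whole blood comes largely from the few cells in cycle, such as activated lymphocytes and immature cells. Before a cell divides, the MCM2 to MCM7 proteins form the ring-shaped helicase that opens the DNA, PCNA clamps the polymerases to it, and ribonucleotide reductase (RRM1 with RRM2), thymidylate synthase (TYMS) and thymidine kinase (TK1) supply the nucleotides. Later, cyclin B with CDK1 starts mitosis, spindle motors and kinetochore proteins attach the chromosomes, and the anaphase-promoting complex ends it by having cyclin B destroyed.

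The values were read through probes of 60 bases. The probes of 7 of the members called lower at T1 in 1 or both sets, as given below, are shown in lower case. They run 5′ to 3′ on the strand of the mRNA, with no bases marked, and show which stretch of each transcript the level stands for.
CCNB1: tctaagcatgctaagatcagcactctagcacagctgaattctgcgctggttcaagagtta
CDK1: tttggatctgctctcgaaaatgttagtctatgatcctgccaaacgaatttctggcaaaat
CDC20: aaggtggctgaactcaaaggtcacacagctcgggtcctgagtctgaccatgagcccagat
UBE2C: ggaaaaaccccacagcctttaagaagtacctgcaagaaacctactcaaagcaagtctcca
PCNA: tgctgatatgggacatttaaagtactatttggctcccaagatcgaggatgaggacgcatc
MCM5: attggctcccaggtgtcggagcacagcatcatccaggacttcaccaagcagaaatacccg
MCM7: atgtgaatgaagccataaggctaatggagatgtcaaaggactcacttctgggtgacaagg
The positions follow the EquCab1 build named in the scanner files' header. The *CCNB1* probe lay at chr21:761222-761281 on the minus strand and the *PCNA* probe at chr22:17971251-17971310 on the plus strand, each as 1 stretch of the genome. Those of *CDK1* (chr1:49550596-49553167, plus strand), *CDC20* (chr2:13255444-13255884, minus strand), *UBE2C* (chr22:34838650-34839191, plus strand) and *MCM5* (chr28:32874839-32875776, plus strand) covered 2572, 441, 542 and 938 bases of the genome with their 60, so that each crossed an intron. The *MCM7* probe lay at chrUn:229925832-229925891 on the minus strand, among sequence not placed on a chromosome. The array uses the gene name MCM7 for 5 other probes whose description reads *MCM2*, and these were read as *MCM2*.

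Cell division genes were lower in blood after the ride, in both sets. In the 3 training horses, 9 of the 30 members tested were under-expressed at T1 at an adjusted p under 0.05 (limma with the horse as a block) and none was over-expressed, beside 4.03% of all 17439 gene names tested that were under-expressed and 6.28% that were over-expressed. In the validation set, 21 of 32 members tested were under-expressed and none over-expressed, beside 23.9% and 20.3% of 17402 gene names. The median change over the members was -1.08 on the log2 scale in the training set and -0.76 in the validation set, and over all gene names tested it was 0.032 and -0.068. The size depended on the background correction: after normexp correction with quantile normalization the members' medians were -0.59 and -0.31. From the deposited series values they were -0.63 and -0.32. Every called member was still lower at T1 on both scales, but not every call was kept. With normexp correction 6 of 9 training calls and 16 of 21 validation calls were kept. From the series values 7 of 9 and 16 of 21 were kept. The 8 genes that passed in both sets were *RRM2*, *CCNB1*, *CDC20*, *TTK*, *KIF11*, *BUB1B*, *MKI67* and *UBE2C*, and of 17093 gene names tested in both sets 3.89% were under-expressed in both. Each of the 8 lost its training call under some of the 13 other settings tried, from 2 settings for *RRM2* to 7 for *BUB1B*. *BUB1B* passed in neither set after normexp correction or from the series values. With scan day as a term in the validation fit, of these 8 only *RRM2* and *CDC20* kept their validation call. The other validation calls kept there were those of *TYMS*, *MCM5*, *MCM6*, *MCM7*, *PCNA*, *AURKA* and *AURKB*, and 12 of the 21 were lost. A level is given throughout as log2 intensity minus the array's 75th percentile, and a change as T1 minus T0 on that scale. Without the block, 15 members passed in the training set, and between 0 (no filter on dim probes) and 18 (probes well above background on all 6 arrays) passed under the other settings tried. Beside these counts, in the same order, 777 of 17489, 11 of 24320 and 1265 of 15438 gene names were under-expressed. In bulk RNA, fewer cells of a type and less RNA per cell cannot be told apart.

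**Figure D1:**
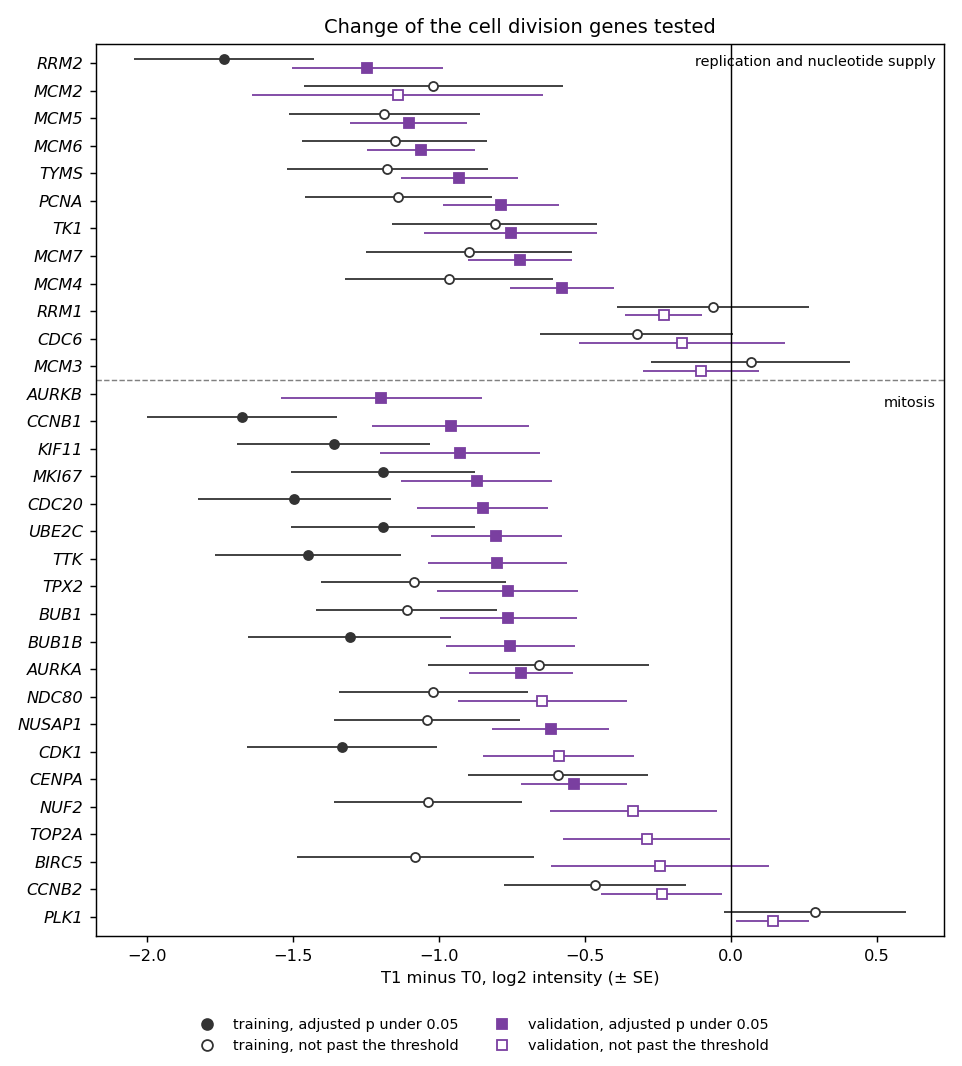
Change of each member tested (T1 minus T0, log2 intensity, with SE) in the training set (circles) and the validation set (squares), filled where the adjusted p was under 0.05. All filled points lie below 0, between -1.74 and -0.54, while *PLK1*, *MCM3*, *RRM1* and *CDC6* lie near 0.

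A validation horse, number 47, stood apart at T0. It was the lowest of the 7 T0 horses for 26 of the 36 members, and its median level over the members was -2.98, against a median of -2.20 over the 7 horses and of -2.88 over the 13 T1 horses. Its markers of other cells differed in the same array: its summed level of 14 T cell genes was 28.5, the lowest of the T0 horses (up to 66.3), and that of 11 neutrophil genes was 697, the highest (from 144). A summed level adds the intensities of a list's genes, each divided by the array's 75th percentile. Without horse 47, 22 of 31 members tested were under-expressed at T1, beside 4500 of 17271 gene names, and the median change was -0.85. At T1, horse 19 was the highest of 13 for 16 members and horse 62 the lowest for 11. The array of T1 horse 34 was scanned in 1 pass, with 431 saturated spots, none of them a probe read for a member. Without that array 20 members were under-expressed, beside 4033 of 17373 gene names.

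**Figure D2:**
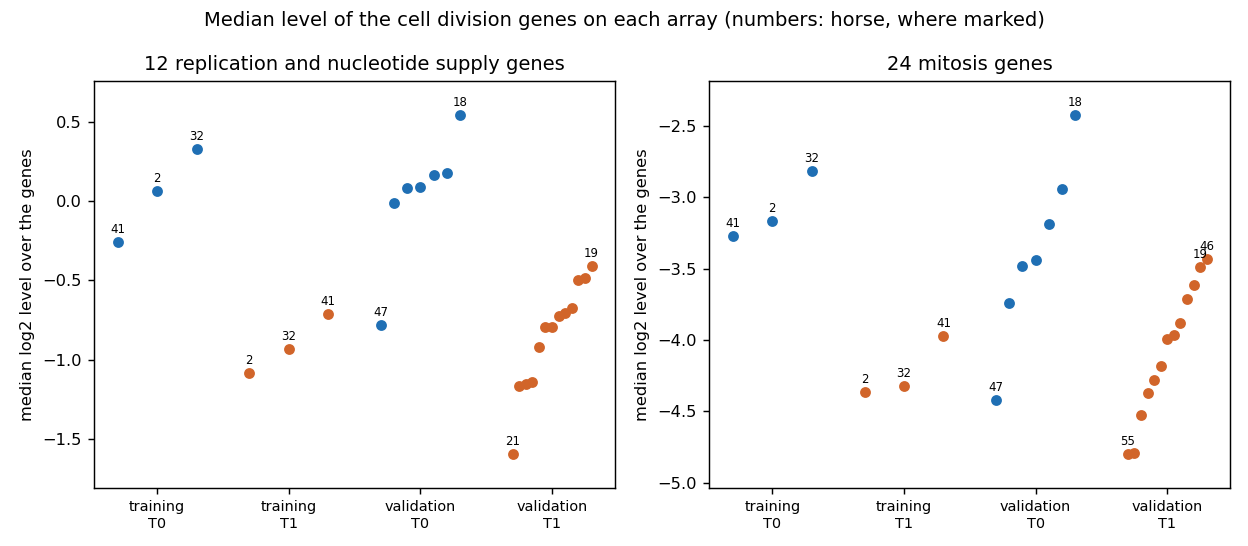
Median log2 level over the 12 replication and nucleotide supply genes (left) and the 24 mitosis genes (right) on each array (points, blue at T0 and orange at T1), with the number of the horse at the ends of each group and for horse 19. The training arrays of T1 lie below those of T0 in both panels, and validation T0 horse 47 lies among the T1 horses.

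Among the genes of replication and nucleotide supply, *RRM2* fell most. It encodes the small subunit of ribonucleotide reductase, which is made mainly while DNA is copied. Its levels in training horses 2, 32 and 41 were -0.22, 0.24 and -0.33 at T0 and -1.96, -1.48 and -2.08 at T1, and all T1 arrays were below all T0 arrays. The change was -1.74 (SE 0.31, adjusted p = 0.0142), a 3.33-fold lower intensity, and it was alike in the 3 horses at -1.74, -1.72 and -1.75. The lowest, median and highest levels of the validation horses were -1.50, -0.45 and 0.13 at T0 and -3.01, -1.68 and -0.71 at T1, with 8 of 13 T1 horses below every T0 horse and a change of -1.25 (SE 0.26, adjusted p = 0.000624). The large subunit *RRM1*, which is also used outside replication, did not pass in either set, with changes of -0.062 (adjusted p = 0.917) and -0.23 (adjusted p = 0.166), and its training horses did not share a direction (-0.21, -0.40 and 0.42).

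*TYMS* and *TK1* fell in the validation set. For *TYMS*, which makes thymidylate, the lowest, median and highest levels there were -1.23, -0.075 and 0.51 at T0 and -1.72, -0.97 and -0.44 at T1, and the change was -0.93 (SE 0.20, adjusted p = 0.000828). Each of the 13 T1 horses was below the T0 median. In the training horses *TYMS* was -0.13, 0.30 and -0.33 at T0 and -1.40, -1.39 and -0.91 at T1, with no overlap between the time points, and the change of -1.18 missed the threshold at an adjusted p of 0.0614. *TK1*, which salvages thymidine, changed by -0.75 (SE 0.30, adjusted p = 0.0439) in the validation set, where its levels were -2.98, -2.56 and -2.00 at T0 and -4.22, -3.25 and -1.06 at T1. The highest T1 value belonged to horse 7 and exceeded every T0 horse, while 9 of 13 T1 horses were below every T0 horse. The validation call of *TK1* was lost under 8 of the 15 other settings tried. In the training set its change was -0.81 (adjusted p = 0.163).

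Of the helicase ring, *MCM4*, *MCM5*, *MCM6* and *MCM7* fell in the validation set. *MCM5* was the only member whose validation groups did not overlap, which held for 0.759% of all gene names tested. Its lowest, median and highest levels were 0.088, 0.62 and 0.95 at T0 and -1.80, -0.38 and 0.012 at T1, and the change was -1.10 (SE 0.20, adjusted p = 0.000206), a 2.15-fold lower intensity. In the training horses it was 1.01, 1.06 and 0.48 at T0 and -0.38, -0.40 and -0.24 at T1, again without overlap, and its change of -1.19 was just short of the threshold (adjusted p = 0.0527). *MCM6* had the smallest adjusted p of the members in the validation set, with a change of -1.06 (SE 0.19, adjusted p = 0.000136) and levels of 0.49, 1.60 and 1.90 at T0 and -0.18, 0.50 and 1.06 at T1. The lowest T0 value was that of horse 47, and the next lowest T0 horse, at 1.56, was above every T1 horse. Its training levels were 1.27, 2.03 and 1.27 at T0 and 0.27, 0.58 and 0.27 at T1 and its change -1.15 (adjusted p = 0.0518).

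*MCM7* was 0.071, 0.58 and 1.26 at T0 and -0.65, -0.17 and 0.50 at T1 in the validation horses and changed by -0.72 (SE 0.18, adjusted p = 0.0026), with 9 of 13 T1 horses below every T0 horse. *MCM4* was -1.53, -0.96 and -0.38 at T0 and -2.21, -1.38 and -0.89 at T1 and changed by -0.58 (SE 0.18, adjusted p = 0.0121). Neither passed in the training set, where *MCM7* was 0.66, 1.52 and 0.25 at T0 and 0.022, -0.091 and -0.18 at T1 and *MCM4* -0.77, -0.15 and -1.06 at T0 and -1.82, -1.71 and -1.34 at T1, and the difference was largest in horse 32 for both. *MCM2* had the widest spread, with validation levels of -3.42, -2.49 and -1.26 at T0 and -7.28, -3.25 and -1.70 at T1. The lowest T1 value came from horse 21, in which all 5 probes of *MCM2* lay between -7.39 and -7.12, while the next T1 horse was at -4.38. *MCM2* did not pass, with a change of -1.14 (SE 0.50, adjusted p = 0.0673) there and of -1.02 (adjusted p = 0.163) in the training horses, whose values were -2.15, -1.09 and -3.26 at T0 and -2.85, -3.40 and -3.31 at T1.

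*MCM3* gave different answers from its 2 probes, whose levels had a Pearson r of 0.024 over the 26 arrays. The brighter probe, which stood for the gene, was 2.41, 1.72 and 1.70 at T0 and 1.86, 2.10 and 2.08 at T1 in the training horses, and its change was 0.067 (adjusted p = 0.913). In the validation horses it was 1.74, 2.08 and 2.69 at T0 and 1.52, 1.91 and 3.20 at T1, with overlapping groups and a change of -0.10 (SE 0.20, adjusted p = 0.712). The dimmer probe, well above background on all 26 arrays, was lower at T1 in each training horse, by a change of -1.09, -1.69 and -0.60 in horses 2, 32 and 41. In the validation set the dimmer probe had a mean of 0.43 ± 0.44 (SD) in the 7 T0 horses and of -0.45 ± 0.32 in the 13 T1 horses, a difference of -0.87 with p = 0.000335 in a two-sided exact permutation test over the 20 horses. The same test gave p = 0.608 for the brighter probe. The dimmer probe was looked at after the values of the brighter one were seen.

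**Figure D3:**
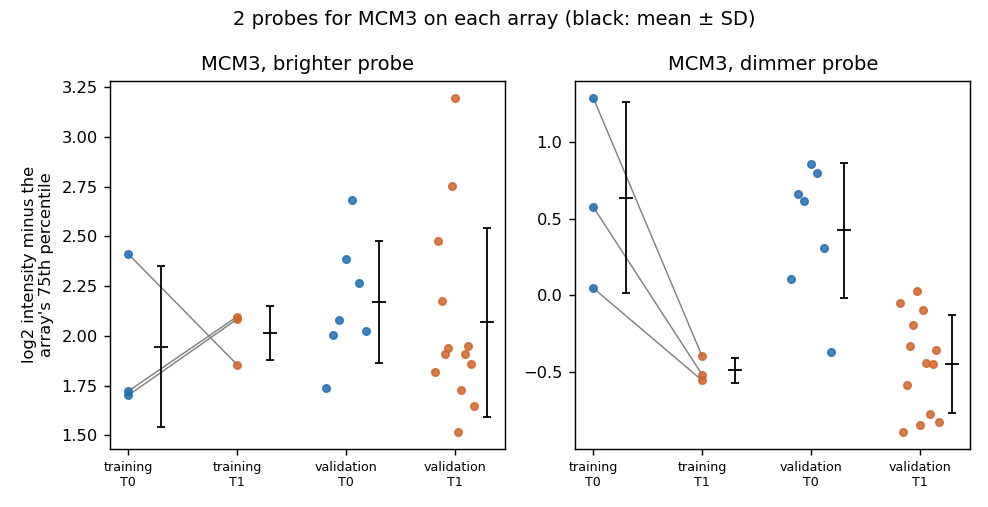
Log2 intensity of the brighter (left) and the dimmer (right) probe of *MCM3* on each array, with the mean and SD of each group in black and lines joining the arrays of a training horse. The brighter probe overlaps between T0 and T1, while the dimmer one is below 0.03 on every T1 array.

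*PCNA*, the sliding clamp, was -0.33, 0.61 and 1.15 at T0 and -0.89, -0.28 and 0.35 at T1 in the validation horses and changed by -0.79 (SE 0.20, adjusted p = 0.00291). In the training horses it was 0.73, 0.36 and 0.56 at T0 and -0.76, -0.48 and -0.51 at T1, without overlap, and its change of -1.14 had an adjusted p of 0.0556. A second *PCNA* probe differed by -1.15 and -0.86 in the training and the validation set, and the remaining probe by -0.34 and -0.32. In a two-sided exact permutation test on the validation horses the second probe had p = 0.00121 and the remaining probe p = 0.0781. The remaining probe changed by -0.85, -0.087 and -0.084 in training horses 2, 32 and 41. *CDC6*, which loads the helicase onto origins, did not pass in either set (-0.32 and -0.17, adjusted p = 0.548 and 0.732), and the second *CDC6* probe gave similar differences of -0.28 and -0.12. Counted together, 1 of the 12 replication genes passed in the training set and 8 of 12 in the validation set, with median changes of -0.99 and -0.77. Over all gene names tested, 4.03% and 23.9% were under-expressed in these sets.

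Among the genes of mitosis, 8 of 18 tested were under-expressed in the training set and 13 of 20 in the validation set, beside 4.03% and 23.9% of all gene names. Their median changes were -1.10 and -0.74. *CCNB1* encodes cyclin B1, the partner of CDK1. It was -1.34, -1.24 and -1.80 at T0 and -3.03, -3.30 and -3.08 at T1 in training horses 2, 32 and 41, a change of -1.68 (SE 0.33, adjusted p = 0.0189) and a 3.19-fold lower intensity. The validation levels were -3.15, -1.88 and -0.78 at T0 and -3.96, -2.70 and -1.80 at T1, where T0 horse 47 was lower than 9 of the T1 horses, and the change was -0.96 (SE 0.27, adjusted p = 0.00621). *CDK1* was -1.30, -1.60 and -1.61 at T0 and -2.77, -3.22 and -2.53 at T1 in the training horses, a change of -1.33 (SE 0.32, adjusted p = 0.0379). It was -2.84, -1.87 and -0.32 at T0 and -2.95, -2.31 and -1.31 at T1 in the validation horses, where its change of -0.59 missed the threshold (adjusted p = 0.0702). Without T0 horse 47 the validation change of *CDK1* was -0.78 and passed (adjusted p = 0.0128). Cyclin B2 (*CCNB2*) passed in neither set, with -0.46 (adjusted p = 0.347) and -0.24 (adjusted p = 0.371).

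*MKI67*, the gene of the Ki-67 protein that coats mitotic chromosomes and is used as a mark of cycling cells, was -1.72, -0.98 and -2.00 at T0 and -2.77, -2.48 and -3.03 at T1 in the training horses. Horse 41 was lowest and horse 32 highest at both time points, and the change within horses was -1.05, -1.50 and -1.02, with an estimate of -1.19 (SE 0.32, adjusted p = 0.0471). In the validation horses *MKI67* was -2.71, -1.72 and -0.99 at T0 and -3.55, -2.53 and -1.56 at T1 and changed by -0.87 (SE 0.26, adjusted p = 0.00924). A dimmer probe of the gene differed by -1.19 and -0.64 in the training and the validation set. *TOP2A*, the topoisomerase that untangles chromosomes, was dim: 8 of the 26 arrays had it well above background, among them 1 of the 3 training arrays of T0 and none of T1, so that it was not tested there. Its T0 levels were -5.73, -4.23 and -5.85 in horses 2, 32 and 41 and its T1 levels -6.30, -6.57 and -5.82, and only horse 32 at T0 was well above background. The mean T0 intensity was 1.85-fold higher than a floored T1 mean. In that T1 mean each array was set at the higher of the probe's own signal and the array's lowest signal well above background. The figure is not a strict lower bound, since T0 arrays not well above background entered at their own signal. It rests on horse 32, since without that horse neither time point was well above background. In the validation horses *TOP2A* was -6.95, -5.71 and -5.35 at T0 and -7.38, -6.04 and -5.35 at T1, with a change of -0.29 (SE 0.29, adjusted p = 0.441).

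The aurora kinases and PLK1 followed no single pattern. *AURKA*, which matures the spindle poles, was -4.39, -3.75 and -3.26 at T0 and -5.11, -4.50 and -3.90 at T1 in the validation horses and changed by -0.72 (SE 0.18, adjusted p = 0.00258), with 8 of 13 T1 horses below every T0 horse. In the training horses its change was -0.66 (adjusted p = 0.277), and the difference was largest in horse 32 (-0.32, -1.57 and -0.08). *AURKB*, the kinase that corrects chromosome attachment, was dim, and 4 of 7 T0 arrays and 3 of 13 T1 arrays of the validation set had it well above background. Its levels there were -6.52, -5.98 and -4.75 at T0 and -8.68, -7.03 and -5.52 at T1 and its change -1.20 (SE 0.34, adjusted p = 0.00748) with most arrays not well above background. The change was -0.11 (adjusted p = 0.097) after normexp correction with quantile normalization and -0.12 (adjusted p = 0.0773) from the deposited series values, so that the call was lost, and without horse 47 the gene was well above background on too few arrays to be tested. In the training set 1 of 3 T0 arrays and no T1 array had *AURKB* well above background. The mean T0 intensity was 2.69-fold higher than a T1 mean floored as for *TOP2A*, which is again not a strict lower bound. The T0 array well above background was that of horse 32, at -4.22, against -5.52 and -6.00 in horses 2 and 41. *PLK1*, a kinase needed from mitotic entry to exit, was the only member with a higher value at T1 in all 3 training horses (0.78, 0.46 and 0.87 at T0 and 1.17, 0.87 and 0.94 at T1). Its changes of 0.29 (adjusted p = 0.574) and 0.14 (adjusted p = 0.379) did not pass, and its validation levels were 0.39, 0.54 and 0.79 at T0 and 0.40, 0.64 and 1.27 at T1. The 5 probes described as *PLK1*, a match that rests on the description alone, differed between T0 and T1 by 0.29 to 0.40 in the training set and by 0.13 to 0.17 in the validation set. The brightest of them averaged 0.71 over the 26 arrays, above the next mitosis gene, *TPX2*, at -1.42. Whether these probes read *PLK1* was not tested.

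Genes of the spindle checkpoint, which holds anaphase back until all chromosomes are attached, were under-expressed at T1 in 1 or both sets, but the validation calls of *TTK*, *BUB1B* and *BUB1* were lost with scan day as a term (adjusted p = 0.0791, 0.0763 and 0.11). *TTK*, the kinase at its top, was -2.96, -2.75 and -3.28 at T0 and -4.70, -4.18 and -4.45 at T1 in the training horses and changed by -1.45 (SE 0.32, adjusted p = 0.0275). Its validation levels were -4.46, -3.26 and -2.46 at T0 and -4.91, -3.89 and -3.54 at T1, and every T1 horse was below the T0 median (change -0.80 (SE 0.24, adjusted p = 0.00988)). *BUB1B*, which inhibits the anaphase-promoting complex, was -3.75, -3.23 and -3.93 at T0 and -4.89, -5.20 and -4.74 at T1 and -5.01, -3.99 and -2.97 at T0 and -5.30, -4.70 and -4.08 at T1, with changes of -1.31 (SE 0.35, adjusted p = 0.0475) and -0.76 (SE 0.22, adjusted p = 0.0086). *BUB1*, the kinase that recruits the checkpoint to kinetochores, was -1.19, -0.93 and -1.31 at T0 and -2.30, -2.17 and -2.30 at T1 in the training horses, where its adjusted p of 0.0539 was just above the threshold for a change of -1.11. The validation levels of *BUB1* were -2.72, -1.42 and -0.47 at T0 and -3.06, -2.24 and -1.47 at T1, a change of -0.76 (SE 0.23, adjusted p = 0.0117). Its dimmer probe differed by -1.30 and -0.57, and the latter did not pass an exact permutation test (p = 0.139, two-sided, 7 against 13 horses).

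Both genes of the exit from mitosis fell in both sets. *CDC20* activates the anaphase-promoting complex. Its training levels were -1.77, -1.30 and -1.89 at T0 and -3.15, -3.28 and -3.01 at T1, without overlap, and its change was -1.50 (SE 0.33, adjusted p = 0.0281). The validation levels were -2.98, -2.18 and -1.62 at T0 and -3.83, -3.14 and -1.94 at T1, with 7 of 13 T1 horses below every T0 horse, and the change was -0.85 (SE 0.23, adjusted p = 0.00433). *UBE2C*, the ubiquitin-conjugating enzyme of that complex, was -1.18, -1.20 and -1.53 at T0 and -2.58, -2.47 and -2.43 at T1 in the training horses and -2.66, -1.61 and -0.57 at T0 and -3.12, -2.40 and -1.50 at T1 in the validation horses. It changed by -1.19 (SE 0.32, adjusted p = 0.0469) and by -0.80 (SE 0.22, adjusted p = 0.00614), and its 5 probes differed between T0 and T1 by -1.27 to -1.02 and by -0.86 to -0.80.

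**Figure D4:**
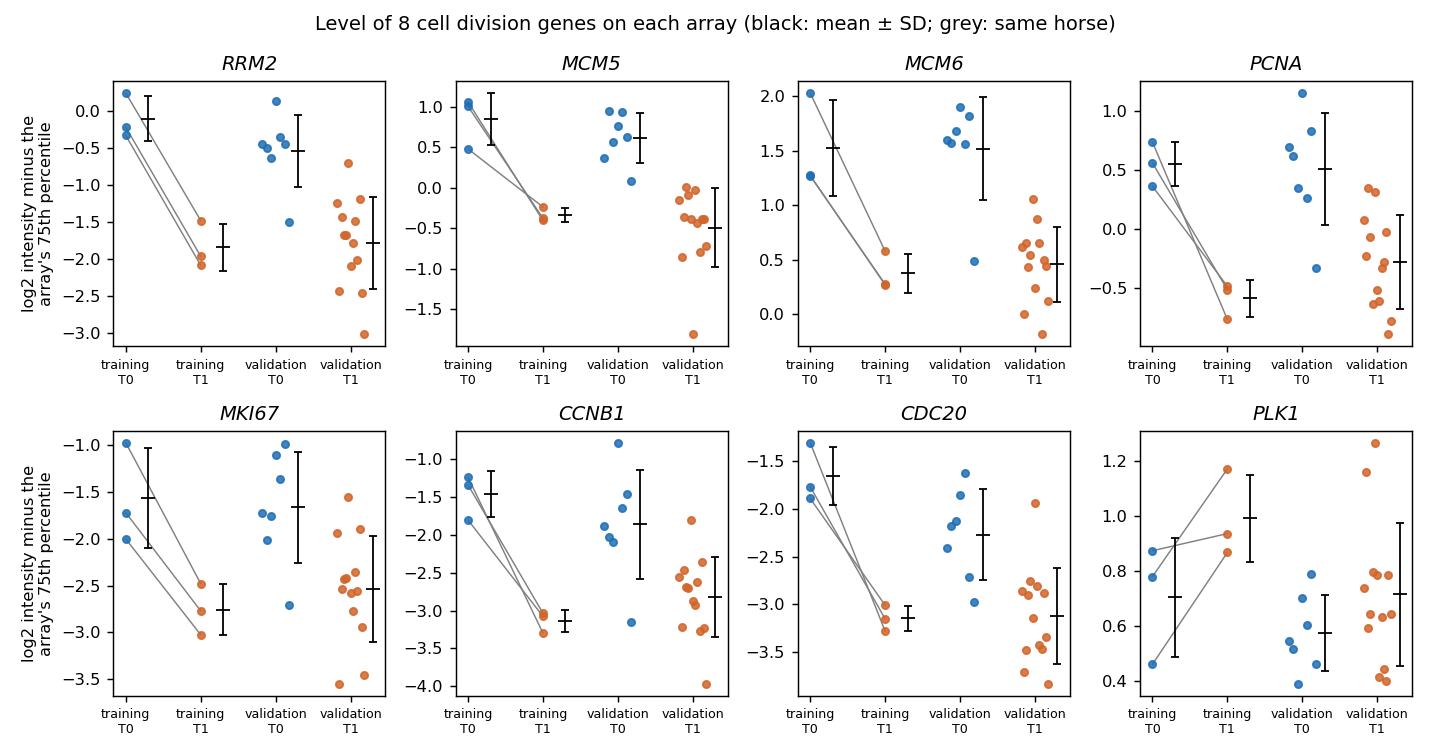
Log2 intensity minus the array's 75th percentile of 8 members on each array (points), with the mean and SD of each group in black and lines joining the arrays of a training horse. For 7 genes the training T1 arrays lie below all T0 arrays, while *PLK1* is higher at T1 in each training horse and overlaps in the validation set.

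*KIF11*, the motor that pushes the spindle poles apart, was -2.29, -2.20 and -2.65 at T0 and -3.75, -3.95 and -3.52 at T1 in the training horses and changed by -1.36 (SE 0.33, adjusted p = 0.0379). In the validation horses it was -3.60, -2.94 and -1.90 at T0 and -4.84, -3.78 and -2.86 at T1, with 7 of 13 T1 horses below every T0 horse and a change of -0.93 (SE 0.27, adjusted p = 0.00902). *TPX2*, which activates aurora A on the spindle, was -1.72, -1.05 and 0.056 at T0 and -2.66, -1.69 and -0.64 at T1 and changed by -0.76 (SE 0.24, adjusted p = 0.0136), and *NUSAP1*, which bundles spindle microtubules, was -5.25, -4.33 and -4.09 at T0 and -5.88, -5.05 and -4.55 at T1 and changed by -0.62 (SE 0.20, adjusted p = 0.0157). Neither overlapped between the time points in the training set, where *TPX2* was -0.68, -0.85 and -0.89 at T0 and -2.06, -1.74 and -1.90 at T1 and *NUSAP1* -4.00, -3.85 and -4.41 at T0 and -5.17, -5.10 and -5.11 at T1, but their changes of -1.09 and -1.04 missed the threshold (adjusted p = 0.0604 and 0.0701). *KIF23* and *RACGAP1*, partners in the central spindle, were well above background on 3 arrays each and were tested in neither set.

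Of *CENPA*, *NDC80*, *NUF2* and *BIRC5*, members that act at the centromere and kinetochore, *CENPA* passed in the validation set and none in the training set. *CENPA*, the histone that marks the centromere, was -3.40, -2.74 and -2.14 at T0 and -4.06, -3.21 and -2.81 at T1 in the validation horses and changed by -0.54 (SE 0.18, adjusted p = 0.0204), the smallest change that passed. The validation call of *CENPA* was lost under 4 of the 15 other settings tried, among them the deposited series values and scan day as a term. The training levels of *CENPA* were -2.48, -2.41 and -2.60 at T0 and -3.09, -3.08 and -3.09 at T1, with a change of -0.59 (adjusted p = 0.234). *NDC80* and *NUF2*, parts of the complex that grips microtubules, passed in neither set. Their changes were -1.02 and -1.04 in the training set (adjusted p = 0.0755 and 0.0722), without overlap, and -0.65 and -0.33 in the validation set (adjusted p = 0.0748 and 0.362). *BIRC5* (survivin), of the complex of aurora B, changed by -1.08 (adjusted p = 0.116) and -0.24 (adjusted p = 0.631). Its probe may also read a second, near-identical locus of the annotation. *CENPE* and *CENPF* were well above background on 5 and 3 arrays and were tested in neither set.

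The direction was shared within horses by more members than passed the threshold. In the training set, 26 of the 30 members tested were lower at T1 in all 3 horses, beside 25.6% of all gene names tested, and the T1 arrays of 24 lay below all T0 arrays, beside 17.7%. Before adjustment, 23 of the 30 had a p under 0.05 (limma), beside 5214 of 17439 gene names. A further count was of members with an adjusted p between 0.05 and 0.08, which were 9, and over all gene names it was not made. The median change over the members was -1.13 in horse 2, -1.44 in horse 32 and -0.67 in horse 41. Horse 32 was the highest of the 3 at T0 for 28 of the 36 members and horse 41 the lowest for 29. At T1 the lowest value was shared more evenly, by 15 members in horse 2, 14 in horse 32 and 7 in horse 41. The number called, like that over all gene names, rested on horses 2 and 32: leaving out horse 2 gave 0 members, horse 32 gave 1 and horse 41 gave 18 (beside 0.377%, 1.2% and 8.37% of all gene names under-expressed), and the median change stayed between -1.23 and -0.96.

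The size of the change was set against the other set in a single fit of all 26 arrays. None of the 36 members differed between the sets at an adjusted p under 0.05 (limma), beside 0% of 19408 gene names. At an unadjusted p under 0.05 there was also no member, beside 158 of 19408 gene names. The change was lower in the training set for 31 of the 36, by a median of -0.35, and over all gene names this difference was 0.078. For *CCNB1* it was -0.71 (SE 0.52), for *CDK1* -0.74 (SE 0.51) and for *MCM5* -0.083 (SE 0.39).

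Scan day and slide were considered because no day or slide held both arrays of a training horse. Within the training set, 2 scan days held an array of each time point from different horses, and the median change over members was -1.37 and -1.02 on them, with 28 of 30 members lower on each. Of the validation days, 5 held both time points, and the median was between -1.07 and -0.56 on 4 of them. On the day of T0 horses 14 and 47 and T1 horse 19 it was 0.40, and 6 of 32 members were lower. The 3 validation slides with both time points gave -1.09, -0.55 and, for horses 47 and 19, 0.75. With scan day as a term, 10 of 32 members were under-expressed in the validation set, beside 3835 of 17402 gene names, and the median change was -0.56. In the fit with no such term it was 21 of 32 members, beside 4161 of 17402 gene names. The count over all gene names thus moved little, and the members stood out from it far less with the term. Without the day of T0 horses 14 and 47 and T1 horse 19, 22 of 30 members passed and the median was -0.98, and without the slide of horses 47 and 19 it was 23 of 30 and -0.94. That day and that slide were left out after their values were seen, and on them the members' median was higher at T1. These counts therefore cannot be set against the count with scan day as a term. The share over all gene names was not counted for the fits without that day or slide.

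Other genes of the cell cycle, not among the members, were counted by list, beside 4.03% of all gene names that fell and 6.28% that rose in the training set and 23.9% and 20.3% in the validation set. Of the further replication genes, 1 of 35 fell and none rose in the training set, and 22 of 34 fell and 1 rose in the validation set (median changes -0.75 and -0.67). *POLD1*, the catalytic subunit of DNA polymerase delta, passed in both, with changes of -1.29 and -1.22 in the training and the validation set. Of the further mitosis genes, 11 of 49 fell and 3 rose in the training set, and 30 of 51 fell and 5 rose in the validation set (-0.78 and -0.61). *SPC24* (-1.39 and -1.27) and *SPC25* (-1.44 and -1.04), which complete the complex of *NDC80* and *NUF2*, fell in both sets. So did the checkpoint gene *MAD2L1* (-1.37 and -1.15), the kinesins *KIF15* (-1.30 and -0.98) and *KIFC1* (-1.36 and -0.56), the centromere gene *CENPK* (-1.20 and -0.90), the phosphatases *CDC25B* (-1.69 and -1.33) and *CDKN3* (-2.17 and -0.87), *CDCA3* (-1.49 and -0.96) and the microtubule destabiliser *STMN1* (-1.46 and -1.17). Against them, *TACC3*, of the spindle (1.96 and 1.45), and *LMNB1*, a lamin of the nuclear envelope of most cells (1.65 and 1.51), rose in both sets.

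Of the G1 cyclins and their kinases, none of 18 passed in the training set, while 7 fell and 3 rose in the validation set. Among the brakes of the cycle, 2 of 23 rose and 3 fell in the training set, and 7 rose and 6 fell in the validation set. In the validation set the shares of the brakes were near those over all gene names. *GADD45A*, an arrest gene induced by stress, rose by 2.54 and 2.21 in the training and the validation set, and *WEE1*, the kinase that holds CDK1 inactive, by 1.25 and 1.32. *PKMYT1*, another inhibitory kinase of CDK1, fell (-1.43 and -1.27), as did *RBL1* (-1.57 and -1.20) and *RBL2* (-1.53 and -1.16), which repress cell cycle genes. These 5 passed in both sets.

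Markers of blood cell types moved with the members, and are counted beside the same shares over all gene names. Of the 15 T cell genes listed 14 had a probe, and 6 of 13 tested fell and none rose in the training set, while 13 of 14 fell in the validation set, with median changes of -1.24 and -1.38. Their summed level ranged over 48.3 to 69.2 at T0 and 22.9 to 24.5 at T1 in the training set, and over 28.5 to 66.3 and 18.7 to 34.2 in the validation set. For B cells, 4 of 10 and 9 of 10 genes fell (medians -1.09 and -1.42), with summed levels of 13.7 to 18.5 and 7.07 to 8.73, then 13.5 to 31.5 and 4.72 to 17. For natural killer cells, 7 of 12 fell in the training set, and 9 fell and 1 rose in the validation set (medians -1.30 and -1.03), with summed levels of 28.2 to 53.3 and 7.12 to 17, then 16.9 to 118 and 10.8 to 27.9. The part of these cells in the members' change was not tested.

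Neutrophil markers went the other way. Of 11 neutrophil genes, 6 rose in the training set and 8 in the validation set, and none fell (medians 1.18 and 1.07). Their summed level was 100 to 488 at T0 and 748 to 859 at T1 in the training set, and 144 to 697 and 442 to 1820 in the validation set. Of 9 granule genes made by immature neutrophils 7 were tested, of which 4 and 5 rose and none fell (medians 2.36 and 2.12), and the 9 had summed levels of 65.5 to 1022 and 987 to 1133, then 136 to 935 and 220 to 1395. The lowest validation T1 sums of both lists, 442 and 220, came from horse 34, whose array was scanned in 1 pass with 431 saturated spots. The next lowest T1 sums were 681.5 (horse 1) for the neutrophil genes and 771.5 (horse 8) for the granule genes. Whether saturation lowered the sums of horse 34 was not tested. Every listed gene with a probe of these 5 kinds was well above background on at least 1 array. Of 9 plasma cell genes 1 rose and 1 fell in each set. Of 10 monocyte genes 4 rose and 1 fell in the training set, and 4 rose and 2 fell in the validation set. Of 8 platelet genes 1 and 2 rose, and of 5 red cell genes 1 rose in each set, with none falling. Their part in the members' change was not tested.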

How the data were processed

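Total RNA from whole blood was hybridised in 1 colour (Cy3) to 26 custom Agilent equine arrays, 1 per sample of 23 horses. The authors' scanner files hold an intensity per spot, background-corrected by Feature Extraction and not normalized between arrays. A deposited table of the whole series holds log2 values made with limma, whose order within an array follows the signal minus background (Spearman rho of at least 0.998), and served as an alternative. Its background correction is not given in the sources used here.

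Here, each array's 75th percentile of log2 processed signal was subtracted, control spots and 386 outlier spots were left out, spots of a probe were averaged, and the brightest probe over the 26 arrays was used for each gene name. The share of spots well above background was 60.4% to 75.4% per array. There were 18 slides and 8 scan days. Gene names well above background on 3 of 6 training arrays, 7 of 20 validation arrays or 3 of 26 arrays were tested in limma 3.58.1 (statmod 1.5.0, R 4.3.3), and their p-values were adjusted together (Benjamini-Hochberg, 0.05). The training fit had the horse as a fixed block, since the labels give both arrays the same animal. As a check, deviations of a horse's arrays from the group means had an r of -0.00866, 0.213 and 0.191 for horses 2, 32 and 41. The validation fit had no block, and the difference between the sets had the horse as a random block (consensus correlation -0.0703). The scripts were tested on simulated data. Single probes were compared by exact permutation in scipy 1.17.1.

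Samples were grouped by the set, animal and time of their labels. The members, lists, comparisons and the rule for named genes were chosen with earlier results of these data known. Values are given for each member past the threshold in a set, for the largest rise and fall, and for *MKI67*, *TOP2A*, *CDK1*, *PCNA* and the MCM genes. Alternatives were normexp correction (offset 50) with quantile normalization, quantile normalization, the series values, no filter on dim probes or one on all arrays, averaged probes, no block, all arrays in 1 fit, scan day, slide or sex as a term, members named through the reference gene table, and horses left out. Leaving out a slide and leaving out a scan day were added after the data were seen.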

Additional observations from a re-analysis of the deposited data

Results flagged for a closer look

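For 6 of the 36 members, a single horse among the 7 validation horses at T0 lay far from the other 6, measured by its gap to the nearest horse as a share of the group's range. Chance alone flags about 1 in 20 such groups where they are independent. The members were read from the same 7 arrays and are not independent, so that 6 of 36 cannot be set against that rate. In 4 of the 6 genes the single horse was horse 47, the lowest for each. These were *MCM6* at 0.49 (nearest horse 1.56), *TYMS* at -1.23 (nearest -0.18), *NUSAP1* at -5.25 (nearest -4.57) and *RACGAP1* at -8.13 (nearest -6.87). Horse 18 was the highest for *CDC6* at -3.42 (nearest -4.40) and horse 29 for *CENPF* at -5.50 (nearest -7.01). *RACGAP1* and *CENPF* were each well above background on 1 of these 7 arrays.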

How the results depend on the processing

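No result reversed and no member was over-expressed past the threshold under any setting. In the training set, 9 members passed, and 15 passed with no replicate block, 15 with quantile normalization, 14 with all 26 arrays in 1 fit and 18 where only probes well above background on every array were tested. Those other fits had, in the same order, 777 of 17489, 1047 of 17439, 1038 of 19408 and 1265 of 15438 gene names under-expressed. With no filter on dim probes 0 passed (limma, 21 of 39 at an unadjusted p under 0.05), and 5 passed with scan day in place of the horse. Beside these, 11 of 24320 and 495 of 17489 gene names were under-expressed, and 4399 of the 24320 had an unadjusted p under 0.05. Leaving out each training horse in turn gave 0 to 18 members and median changes between -1.23 and -0.96. In the validation set, 21 of 32 members passed, and 10 of 32 with scan day as a term. Beside these, 4161 and 3835 of 17402 gene names were under-expressed. The median change of -1.08 in the training set was -0.59 after normexp correction followed by quantile normalization, and -0.63 from the deposited series values. In the validation set it was -0.76, -0.31 and -0.32 in the same order. The cause of these shifts was not tested. Every other setting kept each count within 1.5 times of the reported value and each median within the spread between horses. The number of arrays limits the precision, and 13 of the 36 members were not well above background on every array.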

Other observations

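Single arrays held a high value for a dim gene. *PRC1*, a bundler of the central spindle that was not kept, was at -1.64 in validation T0 horse 29, where the median of the 7 horses was -7.59. *RACGAP1*, its partner in the same structure, was at -3.63 in T1 horse 7, where the median of the 13 horses was -7.21. *CDC6* was at -2.00 in T1 horse 17, against a median of -4.86. These values were picked out after they were seen.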
